A study of Drosophila melanogaster with 19 samples.

Results

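Drosophila melanogaster embryos lacking normal ttk function were compared with control embryos on 4 microarrays, 2 of mutant embryos and 2 of control embryos, out of 19 arrays in the series. These arrays were taken by their titles, as the whole-embryo ttk mutant samples and their own controls. The labels give the mutant strain as ttk2D50 btl-enh-RFPmoe and the control strain as btl-enh-RFPmoe, so both groups carried the btl enhancer driving a membrane-bound red fluorescent protein. The mutant chromosome, bearing a loss-of-function allele that the study's methods write ttk D2-50, was kept over a balancer marked with Twi-GFP, and homozygous mutants were picked by an embryo sorter as embryos without green fluorescence. The labels give the control stock as btl RFP moe over the same twi GFP marker. Eggs were laid for 7 h 40 min at 25 °C and aged for another 5 h 20 min, so embryos of each collection were between 5 h 20 min and 13 h old. Each RNA came from a pool of embryos and was amplified before hybridisation to Affymetrix Drosophila Genome 2.0 arrays. The study's methods call the replicates biological, and an array of each group was left out by the authors at quality control. Values are averages over whole embryos, so fewer cells of a type and less RNA per cell cannot be told apart. The other arrays hold sorted cells of the same genotypes (5 arrays) and embryos in which the btl-GAL4 driver over-expressed ttk, with their controls (6 arrays). They also hold sorted cells of these over-expression and control genotypes (4 arrays). The over-expression samples and their controls all carried btl-GAL4 and btl-enh-RFPmoe, at 29 °C. The 5 and 6 arrays are used here to set the embryo differences beside them, and all of these arrays enter a fit of the 19 arrays.

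Tramtrack (Ttk), the product of ttk, is a zinc-finger transcription factor best known as a repressor. It holds back neuronal fates in the eye and in the sensory organs, is destroyed when those fates are taken up, and in the tracheal system, the branched network of air tubes, it is needed for the shape and size of the tubes and for the cuticle that lines them. The series asked which genes depend on ttk in the embryo and in tracheal cells.

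All values below are log2 values relative to the median gene of the same array, so 0 is the median gene, and a difference of 1 is a doubling of the linear signal. A difference is always the mutant mean minus the control mean. A gene is called a candidate when this difference was 1 or more in size and limma's unadjusted p was 0.05 or below, which are the thresholds the study used. The 4 arrays measured 12679 genes. The deposited table identifies them by FlyBase number alone, and 112 of them could be given a symbol.

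The control arrays differed from each other far more than the mutant arrays did. Of the 12679 genes, 647 differed by 1 or more between mutant replicates 1 and 2, and 4157 between control replicates 1 and 2. Control replicate 1 lay closer to the mutant arrays than to its own partner: it differed by 1 or more from mutant replicates 1 and 2 in 1891 and 1210 genes. Control replicate 2 differed from them in 5345 and 4962 genes. Pearson's r across genes, which are not independent replicates, was 0.985 between the mutant arrays, 0.968 and 0.976 between the mutant arrays and control replicate 1, 0.841 and 0.886 between the mutant arrays and control replicate 2, and 0.900 between the control arrays. Against the mean of the control embryos of the over-expression experiment, which were of another genotype and grown at 29 °C, r was 0.938 and 0.957 for mutant replicates 1 and 2, 0.97 for control replicate 1 and 0.905 for control replicate 2. The part that control replicate 2 played in each result was therefore measured by giving the mutant arrays against each control array alone.

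**Figure D1:**
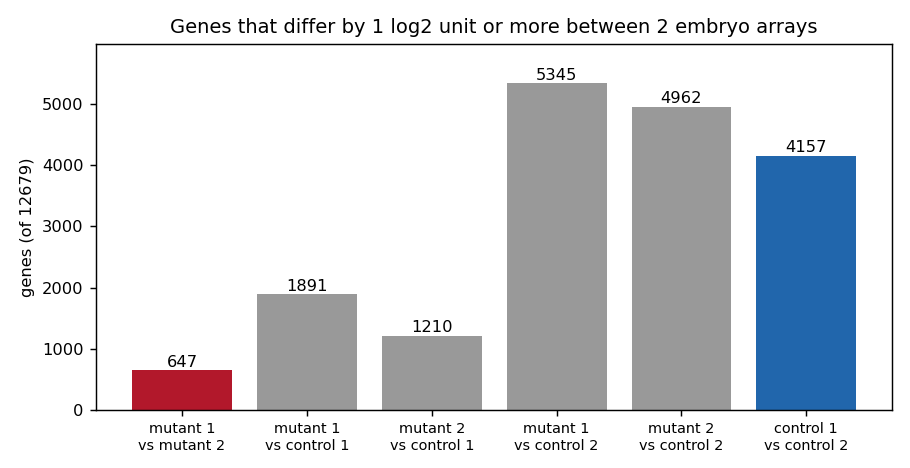
Number of genes, of 12679, whose centred log2 values differed by 1 or more between each pair of whole-embryo arrays (red, the mutant pair; grey, mutant against control; blue, the control pair). The mutant pair differed in 647 genes and the control pair in 4157, and the mutant arrays differed from control replicate 2 in 5345 and 4962 genes.

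The rule gave 705 candidates with higher values in mutant embryos (5.56% of the genes tested) and 406 with lower values (3.2%). Together these were 8.76% of the genes. After Benjamini-Hochberg adjustment over all genes, limma's smallest p was 0.464 and 0 genes reached 0.05, while 1347 did so before adjustment. The same linear model without limma's moderation also gave 0 genes at an adjusted p of 0.05. On the values as deposited, without centring, where the median gene was 0.20 higher in mutant embryos, the split was 1070 higher to 176 lower. A count that does not depend on the p-value was taken as well: all 4 differences between a mutant array and a control array were 1 or more in the same direction for 379 genes on the higher side (2.99%) and for 162 on the lower side (1.28%). Of these, 352 and 154 were also candidates. Both arrays of a group held exactly the same deposited value in 13 candidates, which narrows their spread. Mere lack of overlap between the mutant and the control arrays was common, with 26.8% of genes higher and 27.3% lower on both mutant arrays than on both control arrays.

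Each array weighed on these counts. Without mutant replicate 1 the rule gave 130 higher and 22 lower candidates, without mutant replicate 2 213 and 95, without control replicate 1 2539 and 2575, and without control replicate 2 884 and 426. Genes at an adjusted p of 0.05 (limma) numbered 5593 without control replicate 1, 630 without control replicate 2 and 0 without either mutant array, where the lone array of a group was taken to vary like the pair of the other group.

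The control arrays split the genes unevenly. The mutant mean was at least 1 above control replicate 1 in 898 genes and at least 1 below it in 450. Against control replicate 2 it was at least 1 above in 2539 genes and at least 1 below in 2577. Both conditions held for 588 genes on the higher side and 348 on the lower side, while in 53 genes the mutant mean was at least 1 above a control array and at least 1 below its partner. Genes at least 1 away from control replicate 2 alone numbered 1951 above and 2229 below, and only 153 and 143 of these were candidates.

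**Figure D2:**
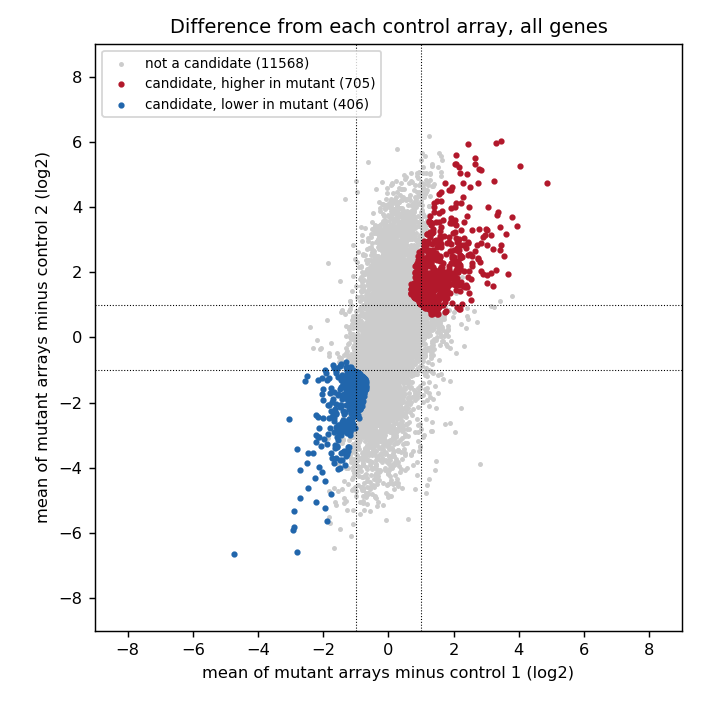
Mean of the mutant arrays minus control replicate 1 (x axis) and minus control replicate 2 (y axis), in log2 units, for each of 12679 genes. Dotted lines mark differences of 1. Candidates with higher values (red, 705) and lower values (blue, 406) lie where both differences have 1 sign, and the cloud is longer along the axis of control replicate 2.

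Candidates were not spread evenly over signal levels. When genes were ordered by their mean over the 4 arrays and cut into 4 bins of equal size, the dimmest bin held 103 candidates with higher and 55 with lower values, the second 222 and 181, the third 226 and 115, and the brightest 154 and 55. The disagreement of the control arrays was widest in the second bin, where the SD over genes of control replicate 2 minus control replicate 1 was 1.64, against 0.60 in the dimmest bin. The corresponding SD between the mutant arrays was 0.70 in the second bin and 0.37 in the dimmest.

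The targeted gene did not separate the genotypes. The array value for ttk (FBgn0003870) was 3.85 and 3.50 in mutant embryos, against 3.84 and 1.38 in control embryos. Mutant embryos and control replicate 1 were at the same level, and control replicate 2 was the low array. The difference of 1.06 ± 0.90 (SE, n = 2 each) did not make ttk a candidate, was 2.29 against control replicate 2 alone and turned to -0.17 against control replicate 1 alone. Whether the array's probes lie in sequence that this allele removes or leaves in place is not given in the sources used here, so the value does not check the labels. In the sorted cells ttk was 0.83 higher on the arrays labelled mutant than on the control arrays, and in embryos labelled over-expression it was -0.47 relative to their controls. The ttk values therefore lend the labels no check in either experiment, and mutant and over-expression below mean the arrays labelled so.

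Of the markers of embryonic tissues, 6 did not separate the genotypes and showed the same low control array. The SEs of their differences lay between 0.45 and 0.79. The gene trh (trachealess), which sets tracheal identity, had values of 1.89 and 1.63 in mutant embryos, against 2.02 and 0.79 in control embryos. The FGF receptor gene btl (breathless), expressed in trachea and midline, stood at 0.62 and 0.28, against 0.77 and -0.42. For sim (single-minded), the master gene of the ventral midline, the values were 0.10 and 0.03 in mutant embryos, against 0.48 and -1.08 in control embryos. The mesoderm gene twi (twist) was at 1.40 and 1.45, against 1.51 and 0.48, and Mef2, the muscle differentiation factor, was at -0.36 and -0.87, against -0.08 and -1.31. The GATA factor gene srp (serpent) of blood and fat body precursors had 1.21 and 1.20 in mutant embryos, against 1.56 and -0.57 in control embryos. In each of these 6 genes mutant replicates 1 and 2 lay below control replicate 1 and above control replicate 2. The tracheal fusion-cell factor gene dys (dysfusion) was low, at -2.66 and -3.16 in mutant embryos, against -3.03 and -3.86. The regulator gene gcm2 did not show the low control array: it had -1.38 and -2.15 in mutant embryos, against -1.49 and -1.56. Its lowest array was mutant replicate 2. None of these markers was a candidate.

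Among the 112 named genes, 12 were candidates with higher values and 4 with lower values, beside 5.56% and 3.2% of all genes. Of the 12, 6 were at least 1 higher in all 4 array comparisons. CG7091 (FBgn0038099) had values of -1.48 and -1.55 in mutant embryos, against -3.71 and -4.04 in control embryos, a difference of 2.35 ± 0.30 (SE, n = 2 each). CG4570 (FBgn0037844) was the brightest of the 6, with 4.09 and 3.92 in mutant embryos, against 1.90 and 1.82 in control embryos, and a difference of 2.15 ± 0.28. Neither control array stood apart from its partner in these genes, and the mutant and control ranges were well separated.

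CG11458 stood at -2.08 and -2.23 in mutant embryos, against -3.57 and -4.57, and CG12520 at -2.44 and -2.0, against -4.01 and -3.99. Mal-B2 (FBgn0032382), which codes for a maltase, an enzyme that splits maltose and related sugars, had values of 0.20 and 0.34 in mutant embryos, against -1.04 and -1.07 in control embryos (difference 1.33 ± 0.28). S-Lap1, 1 of the leucyl aminopeptidase genes whose proteins are abundant in sperm, had values of -1.09 and -1.41, against -2.47 and -3.23 (difference 1.61 ± 0.40). The other S-Lap genes did not follow it as a family: the differences of S-Lap2, S-Lap4 and S-Lap3 were 0.86, 0.64 and 0.33, those of S-Lap8 and S-Lap7 were -0.14 and -0.53, none was a candidate, and their values lay between -5.37 and -2.95 on the 4 arrays.

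The other 6 higher candidates were past the rule on their means while at least 1 of their 4 array comparisons fell short of 1. Nasp codes for a histone H3 chaperone. It had values of 4.23 and 3.97 in mutant embryos, against 2.98 and 1.97 in control embryos, and control replicate 2 lay farther from the mutant arrays (difference 1.62 ± 0.45). Boot (bootlegger) belongs to the machinery that exports piRNA precursors in the germ line. Its values were -0.51 and -0.53 in mutant embryos, against -1.41 and -2.11 in control embryos, a difference of 1.24 ± 0.36. CSN3 codes for a subunit of the COP9 signalosome, which removes Nedd8 from cullin ubiquitin ligases. It stood at 4.16 and 3.87 in mutant embryos, against 3.17 and 2.57 in control embryos, a difference of 1.15 ± 0.36. CG31875, CG31088 and CG42726 had differences of 1.30, 1.33 and 1.15. Against control replicate 1 alone, the mean differences of Boot, CSN3, CG31088 and CG42726 were 0.89, 0.85, 0.95 and 0.96, and these genes were no longer candidates.

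The 4 named candidates with lower values were led by CG33272 (FBgn0053272). This gene had values of -4.0 and -4.58 in mutant embryos, against 0.44 and 2.36 in control embryos, a difference of -5.69 ± 0.75, or 51.6-fold on the linear scale, which was the lowest difference among all 12679 genes. Both control arrays were above the median gene and both mutant arrays were far below it. CG33272 was the only named gene at least 1 lower in all 4 array comparisons.

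Idgf3 (FBgn0020414), which codes for a secreted chitinase-like growth factor, had values of -0.25 and 0.24 in mutant embryos, against 1.04 and 1.91 in control embryos (difference -1.48 ± 0.44). Mccc2, a gene for a carboxylase subunit in the mitochondrial breakdown of leucine, stood at -0.24 and 0.11, against 0.79 and 2.03 (difference -1.47 ± 0.52). CrebB, the fly CREB transcription factor gene, stood at -2.44 and -2.91, against -1.85 and -1.14 (difference -1.18 ± 0.40). In all 3 the control arrays were the higher ones and control replicate 2 was the highest array. Against control replicate 1 alone, the differences of Mccc2 and CrebB were -0.85 and -0.83, short of the threshold.

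**Figure D3:**
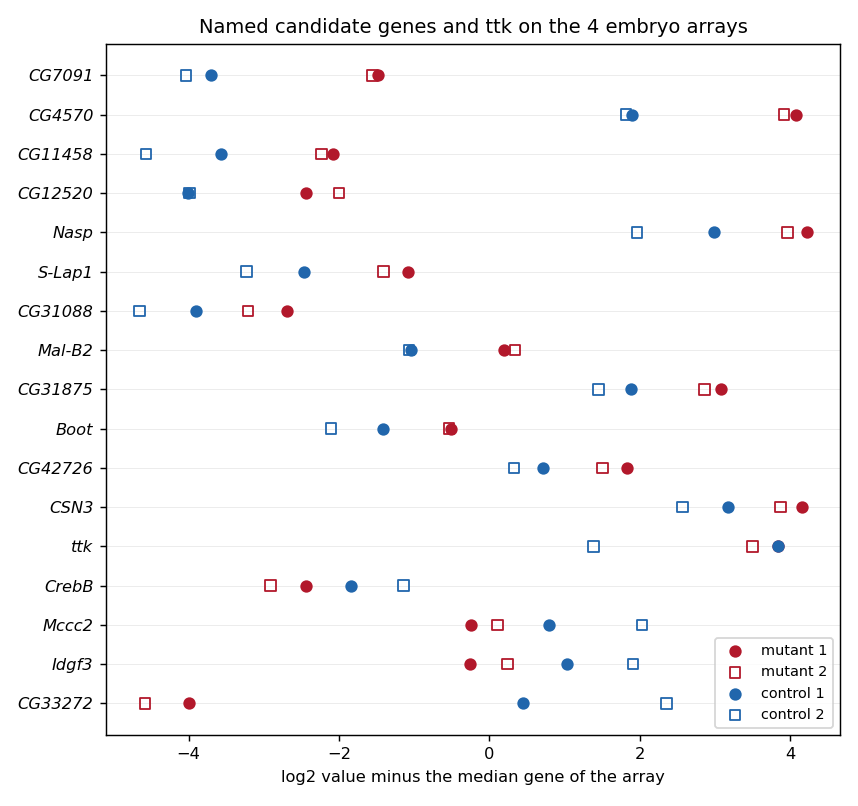
Centred log2 values of the 16 named candidate genes and ttk on each of the 4 arrays (red, mutant; blue, control; filled circles, replicate 1; open squares, replicate 2), ordered by the difference between mutant and control means. CG4570, CG7091, CG12520 and Mal-B2 show both control arrays together and away from both mutant arrays, whereas for ttk the open blue square of control replicate 2 stands alone at 1.38.

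The 6 named genes with the highest control replicate 2 relative to control replicate 1 were picked by that gap, and none was a candidate. The wide spread of their control arrays was therefore fixed by the choice. CG13285 was the extreme case: its values were -4.58 and -1.14 in mutant embryos, against -1.71 and 3.25 in control embryos. Its mutant arrays were themselves 3.45 apart, its control arrays 4.96 apart, and the ranges overlapped. Aldh, the gene of an aldehyde dehydrogenase that clears acetaldehyde, had 0.46 and 1.39 in mutant embryos, against 0.55 and 3.62 in control embryos. Vajk4, of a family of cuticle proteins, had -2.93 and 1.35, against -0.39 and 2.41, and alpha-Est4, a carboxylesterase gene, had -2.69 and -1.43, against -1.06 and 1.53. In CG5793 and CG4546 control replicate 2 was also the highest array, 2.22 and 2.18 above control replicate 1. Vajk4 differed more between the mutant arrays, by 4.29, than between the control arrays, by 2.81. In all 6 genes mutant replicate 2 was also above mutant replicate 1, while the order of the control arrays was fixed by the choice.

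Another set was picked for the widest gap the other way, so its low control replicate 2 was fixed by the choice. The genes ttk and srp belonged to it. CG41099 had values of 4.27 and 4.09 in mutant embryos, against 3.74 and 0.95 in control embryos. LanA, which codes for the laminin alpha chain of basement membranes, had 4.31 and 4.4 in mutant embryos, against 4.53 and 2.04. Pnn (pinin, a splicing-associated protein) had 3.66 and 3.26, against 2.97 and 0.75, and snama, which codes for a RING-finger ubiquitin ligase, had 2.22 and 1.73, against 1.56 and -0.45. In LanA and srp the mutant arrays lay below control replicate 1, so the sign of the difference turned with the control array used. Of the 112 named genes, 15 were at least 1 higher and 17 at least 1 lower on control replicate 2 than on control replicate 1. Among all 12679 genes these counts were 2168 and 1989, so such gaps were not particular to the named genes.

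Other named genes, chosen after their values were seen, showed small differences. AMPKalpha and SNF4Agamma, 2 subunits of the energy-sensing AMP-activated kinase, differed by -0.10 and 0.30. The Y-linked genes ORY, ARY, Ppr-Y and Pp1-Y2 lay between -5.43 and -4.32 on the 4 arrays, with differences of 0.09, 0.11, -0.27 and 0.04. In all, 35 named genes lay below -3 on all 4 arrays, and none of them was a candidate.

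Of the genes that could not be given a symbol, FBgn0039316 had the largest higher difference past all 4 array comparisons. It stood at 1.03 and 0.47 in mutant embryos, against -4.13 and -3.97 in control embryos (difference 4.80 ± 0.34), and was 3.94 higher in mutant than in control sorted cells. FBgn0002645 stood at 3.13 and 2.73 in mutant embryos, against -0.50 and -3.09 in control embryos, and was 3.55 higher in mutant cells. On the lower side FBgn0020639 had -4.61 and -4.17, against -1.58 and 2.19, and FBgn0040393 had -4.11 and -4.38, against -1.32 and 1.66. In sorted cells these genes differed by -0.61 and -2.31. For FBgn0020639 the difference of effects between embryos and cells was -4.09 ± 1.39, which met the rule on the unadjusted p only (adjusted p = 0.362, limma). The pair with higher values was separated from both control arrays by more than 3, and the pair with lower values lay at -4.11 or lower in the mutant.

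Kinds of genes were described through the Gene Ontology (GO) terms for which the study printed member genes, in lists drawn from its own mutant and over-expression arrays and from a published knock-down of ttk by RNA interference in S2 cells, a cultured Drosophila line. For long terms the printed list stops after the first genes. Terms of 1 list share many genes, so each list was first taken as the union of its terms. The terms named below were picked after their values were seen.

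Genes that the study listed as higher in mutant embryos carried terms of egg formation, germ cells and egg axes, and also of the cell cycle, protein metabolism and transposition. The 80 measured genes of the list of terms for genes higher in mutant embryos had per-array medians of 1.96 and 1.70 in mutant embryos, against 0.27 and -0.61 in control embryos. Of these, 67 were candidates, all higher (83.8%, beside 5.56% of all genes). In all 4 array comparisons 50 were at least 1 higher, beside 2.99% of all genes. With mutant replicate 1 or 2 left out, 21 and 25 were candidates. This list was chosen by the study on these same arrays, so the counts describe it and are no independent evidence of its direction. The median difference was 1.49 against control replicate 1 and 2.19 against control replicate 2. Of the 80 genes, 79 were above control replicate 1, beside 6319 of all 12679 genes, which the choice largely fixed as well. All 7 measured genes of karyosome formation, the packing of the oocyte's chromosomes into a compact body, were candidates, with a median difference of 2.75. The same held for all 7 genes of the regulation of oskar mRNA translation, which places the posterior determinant of the egg (median 2.31). Germ cell development had 20 candidates of 21 genes (median 2.09), eggshell formation 12 of 13 (1.80), anterior/posterior axis specification 14 of 16 (2.21) and posttranscriptional regulation of gene expression 18 of 19 (2.09). The 4 genes annotated to transposition were all candidates, with a median of 2.46.

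In mutant cells the median of these 80 genes was 0.74, with 27 genes at 1 or more and 1 gene at -1 or less, beside 5.74% and 6.77% of all genes. In embryos labelled over-expression their median difference from control embryos was 0.09, with 1 gene at 1 or more and 1 gene at -1 or less, beside 4.16% and 1.02% of all genes.

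Receptor and stimulus-response genes, taken from the list for mutant sorted cells, were also higher in whole embryos, by less. The 52 measured genes were chosen on the cell arrays and not on the embryo arrays. Their medians were -0.59 and -0.87 in mutant embryos, against -1.86 and -1.33 in control embryos, and their median difference of 0.75 was nearly the same against control replicate 1 (0.60) and control replicate 2 (0.76). Of the 52 genes, 14 were candidates (26.9%), all higher, beside 5.56% of all genes. The count was 3 without mutant replicate 1, 4 without mutant replicate 2 and 19 without control replicate 2, and without control replicate 1 it was 23 with 4 lower candidates. G-protein coupled receptor signalling, printed only in part, had 9 candidates of 29 genes (median 0.68), and the response to stimulus had 8 of 30 (median 1.02). Single terms depended on the control array more than the whole list did. Against control replicates 1 and 2 the medians were 0.84 and 0.45 for receptor signalling, and 0.59 and 1.24 for the response to stimulus. The 3 serotonin receptor signalling genes had a median of 0.52 and no candidate. In the sorted cells the median of the 52 genes, which the choice fixed, was 1.89.

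Chitin and protease genes, from the list of genes higher after ttk over-expression, were low in all embryos of the mutant experiment. The 67 measured genes had medians of -3.57 and -3.35 in mutant embryos, against -3.39 and -2.06 in control embryos. Over the whole list the median difference of -0.44 was -0.05 against control replicate 1 and -0.90 against control replicate 2. Single terms of the list differed in this. Of the 67, 7 were candidates with lower values (10.4%, beside 3.2% of all genes) and 2 with higher values, and 6 were at least 1 lower in all 4 array comparisons. There were 32 lower and 2 higher candidates without control replicate 1, 6 lower and 8 higher without control replicate 2, 1 lower and 1 higher without mutant replicate 1, and 2 lower and 1 higher without mutant replicate 2. Chitin metabolism, the making and breaking of the polysaccharide of cuticle and tracheal lining, had 27 measured genes with a median of -0.55 and 2 candidates, both lower. Its median was -0.26 against control replicate 1 and -1.10 against control replicate 2, and 7 of the 27 genes were above control replicate 1. In mutant cells 9 of the 27 were at least 1 lower and 0 at least 1 higher, beside 6.77% and 5.74% of all genes. Proteolysis, printed only in part, had 4 candidates with lower and 2 with higher values among 28 genes. Its median was 0.18 against control replicate 1 and -0.61 against control replicate 2. In embryos labelled over-expression, where the choice fixed it, the median of the 67 genes was 2.01.

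For the remaining lists the difference depended on which control array was used. The 9 genes of cell fate commitment, chosen as lower after over-expression, had a median difference of 0.91 in mutant embryos and no candidate: it was 2.37 against control replicate 2, with 8 of 9 genes at 1 or more, and -0.062 against control replicate 1, with 1 gene at 1 or more. The 223 developmental genes listed as higher after knock-down in S2 cells had medians of 2.02 and 1.84 in mutant embryos, against 2.00 and 0.43 in control embryos. Their median difference was 0.57 against both, 0.04 against control replicate 1 and 1.13 against control replicate 2. Only 11 of them were candidates (4.93%, beside 5.56% of all genes), 3 and 4 without mutant replicates 1 and 2, although 117 were at least 1 above control replicate 2. Among all 12679 genes, 2539 were at least 1 above control replicate 2 and 898 at least 1 above control replicate 1. Terms of the S2 list behaved alike: dorsal closure had medians of -0.14 and 1.88 against control replicates 1 and 2, muscle organ development -0.08 and 1.46, photoreceptor cell differentiation 0.05 and 1.69, Wnt receptor signalling 0.02 and 1.72, and learning or memory 0.20 and 2.48. None of these 5 terms had more than 1 candidate.

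Metabolic genes, listed as lower after knock-down in S2 cells, leaned the other way. The 48 measured genes had medians of 1.5 and 1.40 in mutant embryos, against 1.78 and 2.48 in control embryos, and a median difference of -0.62, of which -0.18 remained against control replicate 1. There were 4 candidates with lower values (8.33%, beside 3.2% of all genes) and 1 with higher values. The list held 0 candidates without mutant replicate 1 or without mutant replicate 2, 28 lower and 1 higher without control replicate 1, and 2 lower and 3 higher without control replicate 2. Carboxylic acid metabolism, printed only in part, had 3 lower candidates and 1 higher among 29 genes.

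**Figure D4:**
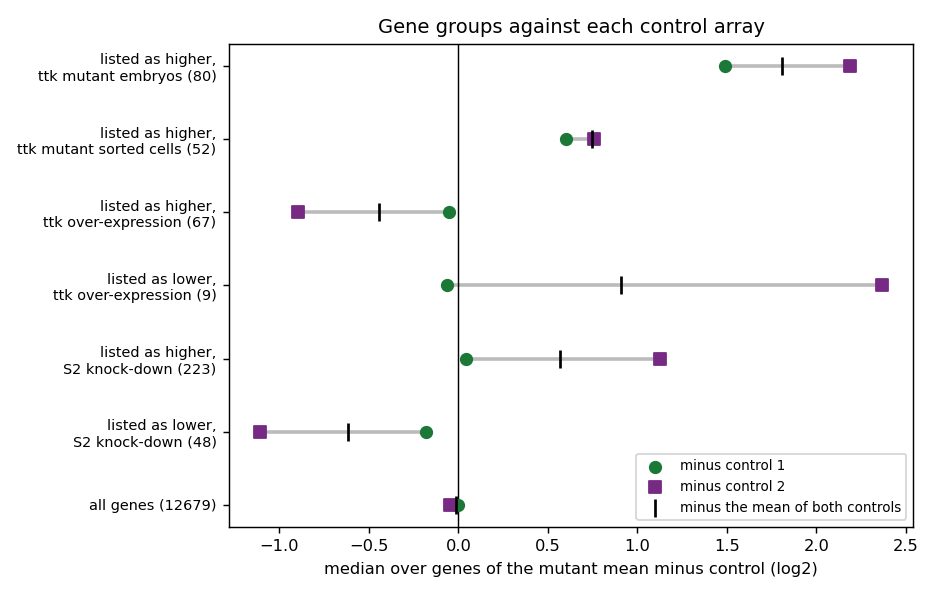
Median over the genes of each list of the mutant mean minus control replicate 1 (green circles), control replicate 2 (purple squares) and the mean of both (black ticks), in log2 units, with the number of measured genes in brackets. The lists of genes higher in mutant embryos and mutant cells lie right of 0 against both control arrays, while the over-expression and S2 lists lie between -0.18 and 0.04 against control replicate 1.

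The sorted cells gave a comparison on arrays that the embryo differences did not use. Of the 352 higher candidates at least 1 higher in all 4 array comparisons, 157 (44.6%) were at least 1 higher in mutant than in control cells and 2 were at least 1 lower, beside 5.74% and 6.77% of all genes. Of the other 353 higher candidates, 70 (19.8%) were at least 1 higher in mutant cells. Of the 154 lower candidates at least 1 lower in all 4 array comparisons, 66 (42.9%) were at least 1 lower in mutant cells and 4 were at least 1 higher. Of the other 252 lower candidates, 52 (20.6%) were at least 1 lower. Candidates past all 4 comparisons also had larger embryo differences (medians 2.00 and -1.93) than the other candidates (1.22 and -1.28). Their signal was lower too, with median levels of -0.08 and -1.09, against 1.03 and -0.12. The part of these differences in the shares was not tested. Set the other way, the 157 genes were a part of 728 genes at least 1 higher in mutant cells, and the 66 genes a part of 859 at least 1 lower.

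The cells also separated the genes by control array. Genes at least 1 above control replicate 1 alone were at least 1 higher in mutant cells in 24.8% of 310 cases. For genes at least 1 above control replicate 2 alone the share was 5.59% of 1951, which is near the 5.74% of all genes. Of these 1951 genes 1.54% were at least 1 lower in mutant cells, beside 6.77% of all genes, and their median in cells was 0.09. On the lower side the shares at least 1 lower in mutant cells were 44.8% of the 348 genes below both control arrays, 35.3% of the 102 below control replicate 1 alone and 21.4% of the 2229 below control replicate 2 alone, beside 6.77% of all genes. Genes above control replicate 2 alone were bright (median level 1.43), whereas those below it alone were near the median gene (-0.22).

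**Figure D5:**
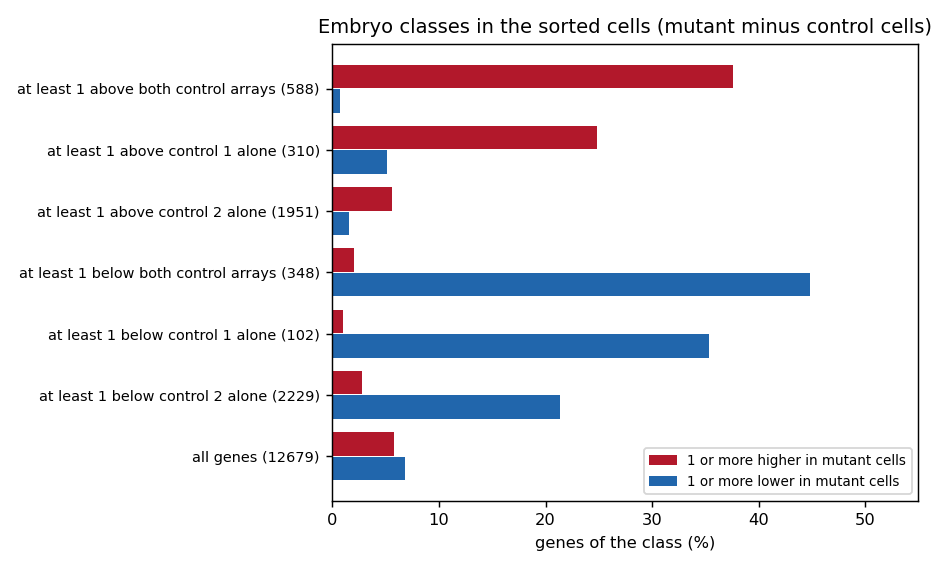
Share of genes at least 1 log2 unit higher (red) or lower (blue) in mutant than in control sorted cells, for genes grouped by whether the mutant embryos were at least 1 above or below both control arrays or only 1 of them; the number of genes is in brackets. The share higher in cells was 37.6% for genes above both control arrays and 5.59% for genes above control replicate 2 alone.

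In embryos labelled over-expression few of the higher candidates differed. Of the 352 higher candidates past all 4 array comparisons, 19 (5.4%) were at least 1 higher and 2 at least 1 lower than in their controls, beside 4.16% and 1.02% of all genes. Of the 154 lower candidates of the same kind, 28 (18.2%) were at least 1 higher after over-expression and 1 was at least 1 lower. Among the 2229 genes below control replicate 2 alone, 11.1% were at least 1 higher after over-expression.

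The effect of the mutation in whole embryos was set against its effect in sorted cells in 1 limma fit of 9 arrays. Of the 12679 genes, 473 had a difference of effects of 1 or more at an unadjusted p of 0.05 or below (3.73%) and 570 a difference of -1 or less (4.5%), and 31 passed an adjusted p of 0.05 (0.244%). On values as deposited, without centring, the split was 3890 to 112. The largest named differences of this kind were those of CG30154, CG12520, Mal-B2 and CG7091. CG30154 was at -1.20 in mutant embryos and 1.15 in mutant cells relative to their controls, a difference of effects of -2.35 ± 0.83. CG12520 was 1.78 higher in mutant embryos and differed by -0.16 in cells, a difference of effects of 1.94 ± 0.30 (adjusted p = 0.066, limma). Mal-B2 was 1.33 higher in embryos and differed by -0.42 in cells, and CG7091 was 2.35 higher in embryos and differed by 0.72 in cells. None of these 4 genes had an adjusted p of 0.05 or below. CG4570, CG11458, Nasp and CG31875 were higher by 1.63, 2.43, 1.60 and 1.16 in mutant cells, and their effects did not differ between embryos and cells beyond the rule.

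The effect of the mutation was also set against that of over-expression in a fit of the 10 embryo arrays, which share no arrays or controls between the experiments. There 1333 genes had a difference of effects of 1 or more at an unadjusted p of 0.05 or below (10.5%) and 1059 one of -1 or less (8.35%), and 179 passed an adjusted p of 0.05 (1.41%). CG33272 was -5.69 in mutant embryos and 2.52 in embryos labelled over-expression relative to their controls, a difference of effects of -8.21 ± 1.07 (adjusted p = 0.021, limma). CG4570 was 2.15 higher in mutant embryos and differed by -0.01 after over-expression (difference 2.16 ± 0.23, adjusted p = 0.012, limma), and CG31875 was 1.30 higher and differed by -0.50 (difference 1.80 ± 0.30, adjusted p = 0.039, limma). Spn77Bb, a serpin gene, differed by 0.02 in mutant embryos and was 2.44 higher after over-expression (difference -2.43 ± 0.45, adjusted p = 0.047, limma). Of the 67 chitin and protease genes 51 met the rule on the negative side of this comparison, and of the 80 genes listed as higher in mutant embryos 71 met it on the positive side. The first of these lists was chosen on the over-expression arrays and the second on the mutant arrays.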

How the data were processed

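Whole-embryo RNA of 2 ttk mutant and 2 control samples was measured on Affymetrix Drosophila Genome 2.0 arrays. The deposited values are log2 expression, 1 per FlyBase gene. The authors used R and Bioconductor with a Brainarray custom probe mapping, and the submitters' processing notes name RMA, a method that corrects background, normalises and summarises probes. How arrays were scaled to each other beyond that is not given in the sources used here. Such values compress differences of dim genes, and the number of arrays limits the precision. All 19 table columns were used; 182 control features were left out, leaving 12679 genes.

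Each array was centred on its median gene. Differences were tested with limma 3.58.1 in R 4.3.3 (lmFit, eBayes, two-sided) on the 4 arrays, with Benjamini-Hochberg adjustment over all genes, and the interactions on 9 and 10 arrays. Standard errors are limma's moderated ones. The fit was tested on simulated data. Alternatives were other scalings, filters on dim genes, other sets of arrays, a replicate block, other moderation and each array left out.

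Symbols came from former FlyBase numbers among the synonyms of RefSeq (Release 6 assembly; 105 genes matched, 2 to several symbols and not named) and from the study's marker table (9 genes). Genes named are ttk, the markers, named candidates, named genes with the widest gap between control arrays, and up to 4 per interaction; others are there for their function and were chosen after their values were seen. None of the 36 gene lists prepared by symbol reached 80% of members paired (highest 15.0%), so they were void. Members and lists were chosen with earlier results of these data known. The study's Gene Ontology lists of identifiers replaced them, after the data were seen, and no set test was run.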

Additional observations from a re-analysis of the deposited data

Results flagged for a closer look

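In 4 named genes the effect of the ttk mutation in embryos differed from that of ttk over-expression in embryos by the interaction test (limma, adjusted p of 0.05 or below over all genes, 10 arrays). CG33272 had a difference of effects of -8.21, with both mutant arrays below both control arrays. The differences of CG4570 and CG31875 were 2.16 and 1.80, and in both genes the mutant arrays were above the control arrays. For Spn77Bb, whose values lay near -5 on the mutant experiment's embryo arrays, the difference was -2.43. The experiments also differed in genotype, driver and temperature, and the part of these differences in the result cannot be told apart from that of ttk.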

How the results depend on the processing

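The count of 1111 candidates became 518 without genes below the median level, where fewer genes were tested, 1817 with the 9 arrays of the mutant experiment in one fit, 2498 with all 19 arrays, 409 without moderation, 550 at a log2 difference of 1.5 and 541 by the rule on all 4 single-array differences. With arrays left out in turn it ranged between 152 and 5114. Genes at an adjusted p of 0.05 (limma) were 113 with 9 arrays and 2303 with 19, and 0 to 5593 with arrays left out, where control replicates 1 and 2 gave the counts above 0 (5593 and 630). With the replicate block the candidates numbered 2234 (1224 higher, 1010 lower; 1024 shared), and 0 genes passed the adjusted p. Deviations of same-numbered arrays from their group means correlated across genes at 0.463, with only 2 pairs. On control replicate 2, 2168 genes were at least 1 higher than on control replicate 1. Of these, 719 were at least 0.5 higher and 83 at least 0.5 lower on mutant replicate 2 than on mutant replicate 1. Another 1989 genes were at least 1 lower on control replicate 2, and of these 365 also fell and 41 rose by that much. Among all genes 1068 rose and 1675 fell by that much. Whether same-numbered arrays were collected together is not given in the sources used here.

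The difference of ttk ranged between -0.17 and 2.29 with arrays left out, and it was 2.29 and a candidate without control replicate 1 and -0.17 without control replicate 2. The comparison of embryo and cell effects gave 1043 genes, 4002 on values as deposited (3890 positive) and 665 without the dimmest 25%. It ranged between 817 and 3759 with arrays left out, the highest without control embryo replicate 1. The comparison with over-expression gave 2392 genes, 2707 on values as deposited (1981 positive), and between 1239 (without mutant embryo replicate 1) and 5250 (without control embryo replicate 1) with arrays left out; without control embryo replicate 2 it gave 1446.

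Without genes below the median level, 1 of the 67 chitin and protease genes of the over-expression list was left, at -1.87, so that setting gives no median of the list. With arrays left out, the median of the cell fate commitment genes ranged between -0.062 and 2.37, the lowest without control replicate 2, and that of the metabolic S2 genes between -1.11 and -0.18. Of 132 values of the 16 named candidates under settings that kept all arrays, 112 kept their direction and call and 20 kept the direction only. With single arrays left out 34 kept the call and 30 the direction only, 12 of them without mutant replicate 1, 12 without mutant replicate 2 and 6 without control replicate 2. The cause of these changes was not tested.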
